A study of Mus musculus with 2 samples.

Results

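Active ribosome profiling of neonatal mouse brain returned fragments of 8 structured non-coding RNAs that are not translated: the 7SL genes Rn7s1 and Rn7s2, the 7SK gene Rn7sk, the ribonuclease RNAs Rmrp and Rpph1, the Y RNAs Rny1 and Rny3, and the vault RNA Vaultrc5. They were picked by gene symbol from a table of 45578 genes, with 1 row per Ensembl gene, and all 8 were found, each with 1 annotated transcript. The samples were whole brains at postnatal day 5 from control mice of the Taiwanese spinal muscular atrophy line on an FVB background, with genotype Smn+/-; SMN2tg/0. Both libraries thus carry 1 disrupted Smn allele and the human SMN2 transgene, and no animal without these alleles was compared. RiboLace beads, which carry a puromycin analogue, captured ribosomes from nuclease-treated cytoplasmic lysate, and fragments of 25 to 35 nucleotides were sequenced. The design holds 1 group with 2 biological replicates, so the comparison it allows is between these libraries and not between conditions.

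These RNAs work as the cores of ribonucleoprotein particles. 7SL RNA is the scaffold of the signal recognition particle, which binds ribosomes whose nascent chain carries a signal sequence and takes them to the endoplasmic reticulum. 7SK RNA holds the elongation factor P-TEFb inactive in the nucleus, RNase P RNA (Rpph1) cuts the leader from precursor tRNAs, and RNase MRP RNA (Rmrp) acts in ribosomal RNA processing. Y RNAs bind the Ro60 protein and vault RNAs sit in the cytoplasmic vault particle. All are made by RNA polymerase III. Rmrp, Rpph1, Rn7sk and the Y RNA genes use promoters that lie upstream of the transcribed part, whereas 7SL and vault genes also carry promoter elements inside it.

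Of the RNAs themselves, the RefSeq sequence table covers 1 stretch, since the promoter window of Parp2 reaches into Rpph1. The table gives no strand for Rpph1, which is taken here, as background, to be transcribed away from Parp2. On that strand, the 106 bases at the 5′ end of the 325-base RefSeq gene (GRCm38.p6, chr14:50807666-50807771, written as the minus strand, 5′ to 3′, in DNA letters) are shown because fragments counted for Rpph1 come from an RNA of this kind. They are 67.9% G or C. In the same RefSeq annotation Rmrp is at chr4:43492785-43493059, Rny3 at chr6:47781624-47781724, Rny1 at chr6:47788070-47788180 and Rn7sk at chr9:78175302-78175633. Rn7s1 is at chr12:69159295-69159593, Rn7s2 at chr12:69361183-69361481 and Rpph1 at chr14:50807447-50807771.
Rpph1 5′ part: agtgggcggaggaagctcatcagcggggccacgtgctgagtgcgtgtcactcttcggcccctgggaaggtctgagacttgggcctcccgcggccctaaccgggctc

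The ribonuclease genes share a layout, with a protein-coding gene starting close by, and the stretches beside them are shown for that reason. The whole 125-base interval between Rpph1 and Parp2 is chr14:50807772-50807896, and the last 225 of the 280 bases between Rmrp and Ccdc107 are chr4:43493115-43493339, both on the plus strand. Capitals mark matches on either strand to the octamer ATTTGCAT, a binding motif of the POU factor Oct-1, and to TATAA, a core of the TATA box.
Rpph1 to Parp2: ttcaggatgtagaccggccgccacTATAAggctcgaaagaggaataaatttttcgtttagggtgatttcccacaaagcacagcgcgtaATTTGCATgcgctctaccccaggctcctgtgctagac
Rmrp to Ccdc107: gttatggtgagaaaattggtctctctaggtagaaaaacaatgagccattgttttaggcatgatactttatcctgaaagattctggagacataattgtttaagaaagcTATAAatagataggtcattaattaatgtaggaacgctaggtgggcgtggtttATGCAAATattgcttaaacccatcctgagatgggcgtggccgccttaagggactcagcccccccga

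Each stretch held 1 octamer and 1 TATAA match. In the Parp2 interval the TATAA match began 25 bases and the octamer 89 bases beyond the end of Rpph1. Beside Rmrp the distances were larger, at 163 bases for TATAA and 215 for the octamer, and the 55 bases next to Rmrp are outside the window. Of 32817 RefSeq promoter windows of 300 bases, 1.74% held the octamer, 24.87% held TATAA and 0.60% held both. A 250-base stretch beside Rn7sk held 3 TATAA matches, 2 of which overlap each other, and no exact octamer. These matches are a description of the letters. The mRNAs across these intervals had few counts, 8 and 5 for Parp2 and 5 and 4 for Ccdc107 in replicates 1 and 2.

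The libraries differed in depth. Gene counts totalled 343552 in replicate 1 and 120282 in replicate 2, and 5436 genes had a mean of at least 10 counts and were tested. Brain markers were present in both, with neuronal genes (Tubb3, Snap25, Syt1 and Stmn2) at 0.514% and 0.540% of counts and oligodendrocyte lineage genes at 0.0326% and 0.0324%. Astrocyte and radial glia genes were at 0.267% and 0.261%, erythroid genes at 0.307% and 0.290%, and microglial genes at 0.0102% and 0.00831%, with overlapping Wilson intervals in every list. The markers of other tissues, Alb and Ins2, had 0 counts in both, and Myh6 had 3 and 0. Short non-coding genes as a class held 3.32% of counts in replicate 1 (11395 counts) and 13.7% in replicate 2 (16435 counts). The class as defined here includes the longer mitochondrial ribosomal RNAs mt-Rnr1 and mt-Rnr2. These had 474 and 635 counts in replicate 1, and 1577 and 2761 in replicate 2. The structured RNAs below belong to this class, and what part the class-wide difference had in theirs was not tested.

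The 8 structured RNAs together had 317 counts in replicate 1 and 749 in replicate 2, although replicate 2 was the shallower library. They took 0.0923% of gene counts in replicate 1, with a 95% Wilson interval from 0.0827 to 0.103. In replicate 2 they took 0.623%, with an interval from 0.580 to 0.669. The mean was 0.358% ± 0.375 (SD, n = 2). The share in replicate 2 was 6.75 times that in replicate 1, and the SD was larger than the mean. A mean over the libraries therefore describes neither, and values are given for each. The sums hold both 7SL genes, which may share fragments, and the mean share was 0.277% with these counted once. In bulk tissue, a change in the number of cells of a type and a change in RNA per cell cannot be told apart. The depth of the table limits these values by counting error. Intervals are computed from the counts alone, so they cover that error only and hold no spread between replicates. Amplified reads carry no identifier of the molecule they came from, so reads of the same molecule may be counted repeatedly.

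Levels were compared between genes as counts per nucleotide of transcript. Rny1, a 112-nucleotide RNA, was counted 33 times in replicate 1 and 71 times in replicate 2, or 0.295 and 0.634 counts per nucleotide. Rmrp (271 nucleotides) had 90 and 168 counts, or 0.332 and 0.620 per nucleotide. Rpph1 (319 nucleotides) had 71 and 128 counts, or 0.223 and 0.401 per nucleotide. In each of these RNAs the shallower library held more counts, and Rpph1 was below Rmrp in both libraries. Rn7s2 and Rn7s1, each 300 nucleotides long, had 55 and 53 counts in replicate 1 and 187 and 174 in replicate 2. Per nucleotide this was 0.183 and 0.177 in replicate 1 and 0.623 and 0.580 in replicate 2. In replicate 1 the exact Poisson intervals of the 7SL genes lay below that of Rmrp and overlapped those of Rny1 and Rpph1. In replicate 2 they overlapped those of Rny1 and Rmrp and lay above that of Rpph1.

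The other 3 RNAs were far sparser. Vaultrc5 (143 nucleotides) had 3 and 10 counts, or 0.0210 and 0.0699 per nucleotide. RefSeq gives this gene a longer model (345 bases, chr18:36801763-36802107), over which its density would be 0.00870 and 0.0290. Rny3 (102 nucleotides) had 1 and 7 counts, or 0.00980 and 0.0686 per nucleotide. Rn7sk (331 nucleotides), the longest of the 8, was counted 11 times in replicate 1 and 4 times in replicate 2, giving 0.0332 and 0.0121 per nucleotide. Rn7sk was the only one of the 8 with fewer counts in replicate 2 than in replicate 1. None of these 3 reached a mean of 10 counts, so they carry no test.

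**Figure D1:**
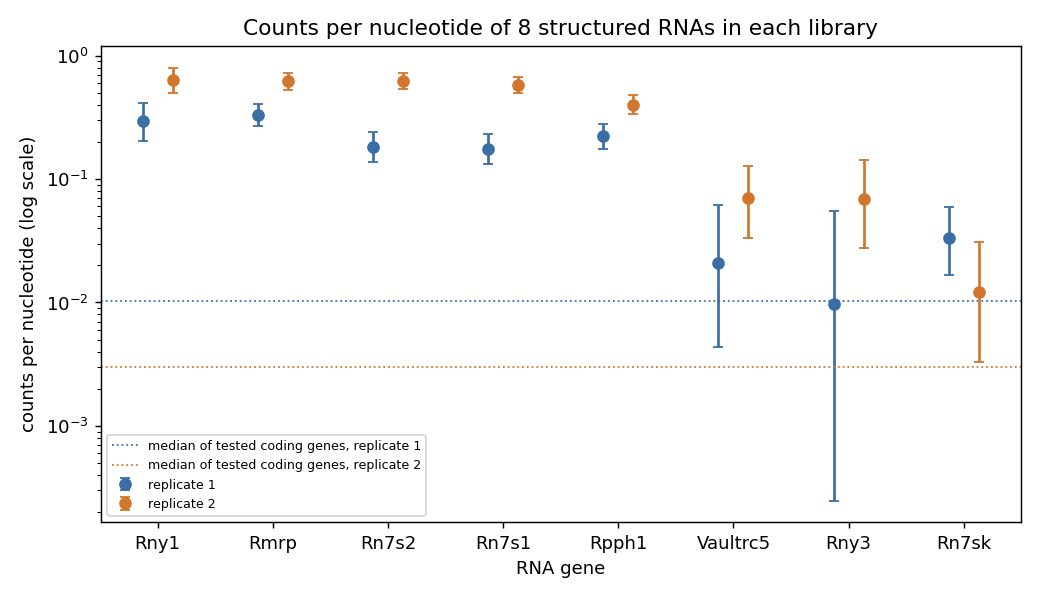
Counts per nucleotide (log axis) of the 8 RNAs in replicate 1 (blue) and replicate 2 (orange), ordered by the mean normalised level, with exact 95% Poisson intervals and the median of 4392 tested protein-coding genes as dotted lines. The 5 genes on the left stand at 0.177 or more in both libraries, and Vaultrc5, Rny3 and Rn7sk at 0.0699 or less. Lengths of coding genes include untranslated regions.

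Set against translated genes, the densities were high per nucleotide of whole transcript. For coding genes that length includes untranslated regions. Densities over the coding sequence alone were not compared. Tested protein-coding genes, which are themselves selected for counts, had medians of 0.0103 and 0.00302 counts per nucleotide in replicates 1 and 2, and 95th percentiles of 0.0934 and 0.0296. Above that percentile lay 5 of the 8 RNAs in replicate 1 and 7 in replicate 2, Rn7sk being the exception there; over its RefSeq length Vaultrc5 would also fall below it in replicate 2. Among all 45578 genes ranked by counts per nucleotide, Rny1 moved from rank 109 in replicate 1 to rank 23 in replicate 2, Rmrp from 88 to 26 and Rn7s2 from 213 to 25. Rn7sk was at rank 2038 and rank 2094, on 11 and 4 counts. Its Poisson intervals were 0.0166 to 0.0595 and 0.00329 to 0.0309 per nucleotide, so a stable place is not shown. High density was also usual among tested short non-coding RNAs: of 262, 212 exceeded the coding 95th percentile in replicate 1 and 257 in replicate 2. The count minimum largely sets this outcome, because a short RNA that reaches it has a high density by its length alone. Of all 6072 short non-coding genes, 4572 had no count, so high density is not shown for the class.

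Scaled by the effective library sizes (CPM, counts per 1000000, here per nucleotide), mean levels ran from Rny1 (3.23 ± 3.44, SD, n = 2), Rmrp (3.22 ± 3.28), Rn7s2 (3.03 ± 3.59), Rn7s1 (2.83 ± 3.32) and Rpph1 (2.09 ± 2.11) to Vaultrc5 (0.341 ± 0.401), Rny3 (0.320 ± 0.415) and Rn7sk (0.0990 ± 0.0126). Replicate 2 sets most of these means, and the order differed between the libraries. In replicate 1 it was Rmrp (0.900), Rny1 (0.799), Rpph1 (0.603), Rn7s2 (0.497), Rn7s1 (0.479), Rn7sk (0.0901), Vaultrc5 (0.0569) and Rny3 (0.0266). In replicate 2 it was Rny1 (5.66), Rn7s2 (5.57), Rmrp (5.54), Rn7s1 (5.18), Rpph1 (3.58), Vaultrc5 (0.625), Rny3 (0.613) and Rn7sk (0.108). Between neighbours in these orders, the counting intervals were apart for Rn7s1 and Rn7sk in replicate 1, and for Rn7s1 and Rpph1 and for Rpph1 and Vaultrc5 in replicate 2. The intervals of the other neighbours overlapped. The SD exceeded the mean for 7 of the RNAs. It was small for Rn7sk, whose levels lay close together, on 15 counts in all.

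Ratios between genes within a library do not depend on the scaling of the libraries. Rmrp had 1.49 times the counts per nucleotide of Rpph1 in replicate 1 (exact 95% interval 1.08 to 2.07) and 1.54 times in replicate 2 (1.22 to 1.96). Rn7s2 stood at 1.04 times Rn7s1 (0.698 to 1.54) and 1.07 times (0.870 to 1.33), with intervals that include equality. These 7SL genes are near-identical copies 201589 bases apart on chromosome 12. Whether fragments that match both were counted for each gene or divided between them is not known. The genes are therefore not independent measurements of 7SL, although each is counted, tested and summed here as its own gene. If fragments were divided, the 7SL counts would be the sum, 108 and 361, and the density of either gene would understate 7SL. Rodent B1 repeats descend from 7SL, and whether fragments of B1 copies in other transcripts entered these counts was not tested. The Y RNA genes are neighbours on chromosome 6, 6345 bases apart, yet Rny1 had 30.1 times the density of Rny3 in replicate 1 (5.03 to 1223, on 1 count of Rny3) and 9.24 times in replicate 2 (4.26 to 23.8). Of the 8 ratios computed, that of 7SL to 7SK differed most between the libraries. Rn7s2 had 5.52 times the density of Rn7sk in replicate 1 (2.86 to 11.7) and 51.6 times in replicate 2 (19.8 to 191), and these intervals did not overlap.

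The makeup of the 8-gene sum shifted accordingly. Rn7s2 and Rn7s1 made up 17.4% and 16.7% of the summed counts in replicate 1 and 25.0% and 23.2% in replicate 2. Rmrp went from 28.4% (Wilson interval 23.7 to 33.6) to 22.4% (19.6 to 25.6) and Rpph1 from 22.4% to 17.1%. Rny1 held 10.4% and 9.48%. Rn7sk held 3.47% (1.95 to 6.11) in replicate 1 and 0.534% (0.208 to 1.37) in replicate 2. Of these, Rn7sk and Rn7s2 had intervals that did not overlap between the libraries, those of Rn7s2 being 13.6 to 21.9 and 22.0 to 28.2.

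An exact binomial test of each gene's counts in the libraries, adjusted by Benjamini-Hochberg over all 5436 genes tested, called 5 of the 5 structured RNAs that reached the count minimum, all higher in replicate 2. These calls compare the reads of 2 libraries, and those of Rn7s1 and Rn7s2 may rest on shared fragments. Over all tested genes 4.14% were called in either direction and 3.99% higher in replicate 2, against 0.956% of protein-coding genes in either direction. Among the 257 other tested short non-coding genes, however, 62.3% were called higher in replicate 2, so a call is the usual outcome for an RNA of this class. The 5 tested RNAs had at least 33 counts in each library and reached 10 counts in either alone. With no count minimum all 8 were tested and 7 were called, Vaultrc5 (adjusted exact binomial p = 0.0148) and Rny3 (adjusted p = 0.0365) among them and Rn7sk not.

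Rn7s2 was 11.2-fold higher in CPM in replicate 2 than in replicate 1 (exact 95% interval 8.25 to 15.4; adjusted exact binomial p = 5.20e-67) and Rn7s1 10.8-fold higher (7.91 to 15.0; adjusted p = 2.03e-61). Rny1 was 7.09-fold higher (4.63 to 11.1; adjusted p = 5.34e-20). The ribonuclease RNAs differed least among the tested RNAs, Rmrp being 6.15-fold higher (4.73 to 8.04; adjusted p = 3.93e-43) and Rpph1 5.94-fold higher (4.41 to 8.06; adjusted p = 5.58e-32). The 7SL intervals lay above that of Rmrp for Rn7s2 and overlapped it narrowly for Rn7s1. Among the untested RNAs, the ratio was 11.0 for Vaultrc5 (2.83 to 62.1), 23.1 for Rny3 (2.96 to 1040) and 1.20 for Rn7sk (0.278 to 4.04). The interval of Rn7sk includes equality and lies below those of all 5 tested RNAs. At 15 counts, a difference of up to 4.04-fold in Rn7sk stays within counting error.

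**Figure D2:**
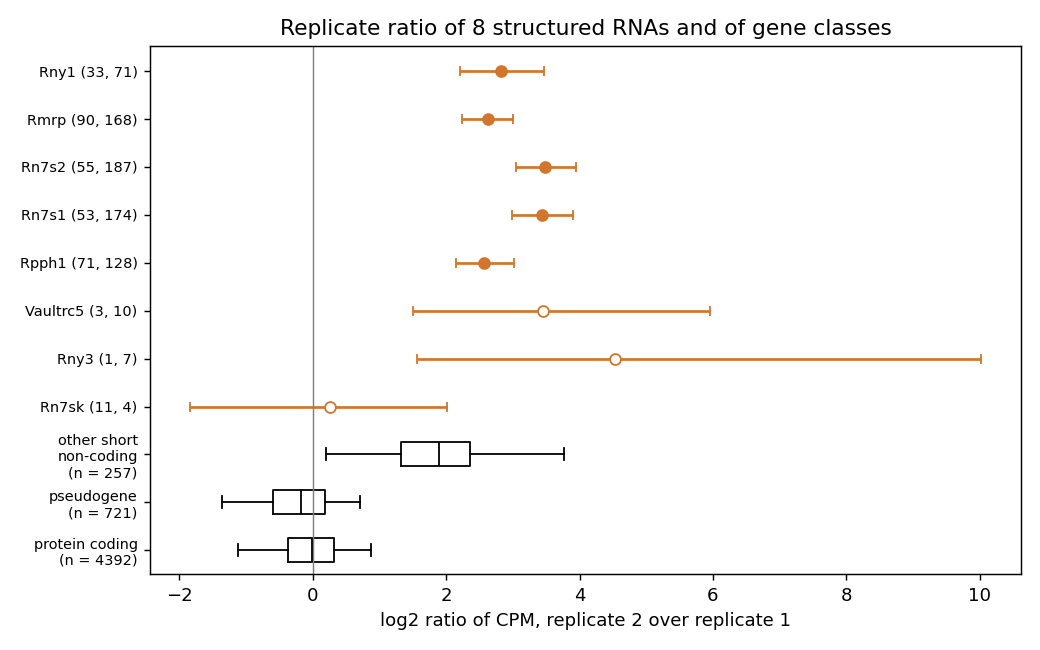
Log2 ratio of CPM, replicate 2 over replicate 1, for the 8 RNAs with exact 95% counting intervals (filled points tested, open points under the count minimum, counts in brackets) and boxes for tested genes of 3 classes, on the log2(CPM + 1) scale, with quartiles and whiskers at the 5th and 95th percentiles. The RNAs other than Rn7sk lie at 2.57 or above, beyond the short non-coding median of 1.90, and Rn7sk lies at 0.26.

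On the log2(CPM + 1) scale, which understates differences of low genes, the 5 tested RNAs had a median log2 ratio of 2.81, with values from 2.56 to 3.48. The median was 0.0041 over all tested genes, -0.016 over protein-coding genes and 1.90 over the other short non-coding genes. With Rn7s1 left out as a copy of Rn7s2, the median of the remaining 4 was 2.71. All 5 lay above the median of the other short non-coding genes, 46 of which (17.9%) were at or above Rpph1, the lowest of the 5. Only 5 of the 4392 tested protein-coding genes were. The mitochondrial ribosomal RNAs mt-Rnr1 and mt-Rnr2, at log2 ratios of 3.45 and 3.84, lay between Rn7s1 and Rn7s2 and above all 5 RNAs, respectively. The part that fragment type, RNA integrity or capture had in this shift was not tested, since the table holds no fragment lengths or positions.

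**Figure D3:**
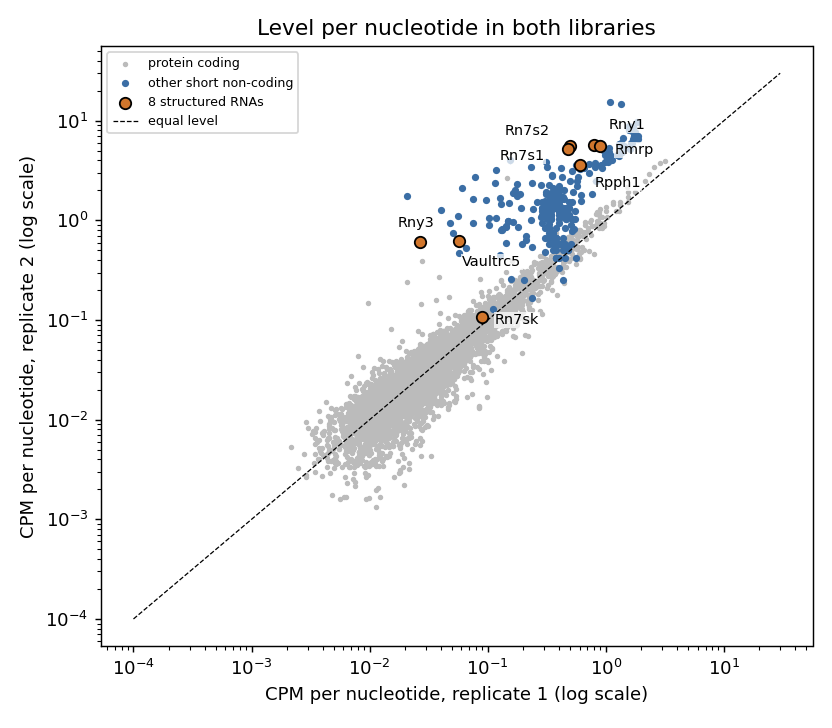
CPM per nucleotide in replicate 1 (x, log axis) and replicate 2 (y, log axis) for tested protein-coding genes (grey), other tested short non-coding genes (blue) and the 8 RNAs (orange, labelled), with the line of equal level dashed. Rn7sk, at 0.0901 and 0.108, sits close to the line among coding genes, and the other 7 lie above it. Genes with 0 counts in a library are not drawn.

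RNAs of the same or like families gave the wider setting. Among 190 such genes, 28 had a count, 5 were tested and all 5 were called higher in replicate 2, with a median log2 ratio of 2.58. The share called higher was 3.99% over all tested genes and 62.3% over short non-coding genes other than the 8 RNAs, which include these 5. Rn7s6, a further 7SL gene, had counts of 34 and 112, with a log2 ratio of 3.43 (adjusted exact binomial p = 2.69e-39), the same value as Rn7s1 to 2 decimals. Rn7s2 had 1.57 times its density in replicate 1 (1.00 to 2.48) and 1.62 times in replicate 2 (1.27 to 2.07). Fragments that match several 7SL genes were not separated, so the values of Rn7s6 may not be independent of those of Rn7s1 and Rn7s2. The RNase P-like genes Rprl2 and Rprl3 had 7 and 14 counts in replicate 1 and 17 and 26 in replicate 2, with log2 ratios of 2.94 and 2.58. Rprl2 reached the count minimum only through replicate 2, the library in which it was called higher, so its call is not independent of the filter. Rpph1 had 4.61 and 4.48 times the density of Rprl3 in the respective libraries, and fragments shared between these copies were not separated.

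The minor spliceosomal RNAs Rnu11 and Rnu12, which serve the removal of a rare class of introns, had 76 and 32 counts in replicate 1 and 129 and 42 in replicate 2. Their log2 ratios were 2.48 (adjusted exact binomial p = 6.90e-31) and 2.10 (adjusted p = 3.79e-08), below those of the 5 structured RNAs. The 180 listed 5S ribosomal RNA genes were at 0 in replicate 1, where the upper limit set by 3 counts is a share of 0.000873%. In replicate 2 they had 32 counts, spread over 20 genes that may share fragments. The telomerase RNA gene Terc had 0 counts in both libraries.

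By a fixed rule, the 5 genes with at least 100 counts whose log2 ratio was nearest to that of the summed 8 RNAs (2.96) were the snRNA gene Gm23143 (2.73), the antisense gene B930036N10Rik (2.71), Rn7s6, Rnu11 (2.48) and mt-Rnr1 (3.45). This likeness is over 2 libraries only and was sought among 759 genes, and Rn7s6 may share fragments with Rn7s1 and Rn7s2.

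The mRNAs of the proteins that bind these RNAs were few in counts. Of 33 listed partner genes 32 were in the table, together with 418 counts in replicate 1 and 137 in replicate 2, or 0.122% and 0.114% of gene counts. Of these, 11 reached the count minimum and 0 were called by the exact binomial test or by edgeR's exact test with a coefficient of variation of 0.2, and 0 had an unadjusted p under 0.05. With 0.956% of all tested protein-coding genes called, no call among 11 is the usual outcome and says nothing particular to these genes. Their median log2 ratio was 0.20, from -0.40 to 0.83. At these depths intervals spanned several-fold, so the mRNAs are not shown to be equal in the libraries.

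Signal recognition particle proteins and their receptor had 196 counts in replicate 1 and 76 in replicate 2. The GTPase subunit that binds signal sequences was highest, with 44 and 20 counts for Srp54b and 35 and 19 for Srp54a, which are similar in sequence and may share fragments. Srp54b was 1.49-fold higher in replicate 2 with an interval of 0.836 to 2.59 that includes equality (adjusted exact binomial p = 0.780), whereas the 7SL intervals started at 7.91 or more. Rn7s2 had 13.7 times the counts per nucleotide of Srp54b in replicate 1 (9.04 to 20.8) and 102 times in replicate 2 (64.5 to 171). These ratios depend on the transcript length, which for Srp54b is 3286 nucleotides with any untranslated regions included. Srp54b had 0.0134 and 0.00609 counts per nucleotide in replicates 1 and 2. Srp54a, at 1515 nucleotides, had 0.0231 and 0.0125. Srp14, which binds the Alu domain of 7SL, had 35 and 8 counts.

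The 7SK partners had 87 and 26 counts, led by the kinase Cdk9 of P-TEFb with 22 and 9. Hexim1, the P-TEFb inhibitor, had 18 and 6, and Mepce, which caps 7SK, had 20 and 6. On the log2(CPM + 1) scale the replicate ratio was 0.25 for Rn7sk, on 15 counts, 0.42 for Cdk9, 0.13 for Hexim1 and -0.016 for Mepce. These mRNAs are the 7SK partners that reached the count minimum. The other 7SK partners, on few counts, had ratios from -2.68 to -0.27. Whether 7SK and these mRNAs vary together was not tested. The 11 proteins of RNase MRP and P had 56 and 12 counts, none reaching the minimum, with Rpp25l highest at 12 and 1. The Y RNA binding proteins had 49 and 12 counts for Ssb (La) and 24 and 9 for Trove2 (Ro60). The 3 vault proteins had 6 and 2 in all, with Tep1 (3 and 0) and Parp4 (2 and 1) tied for the highest sum.

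**Figure D4:**
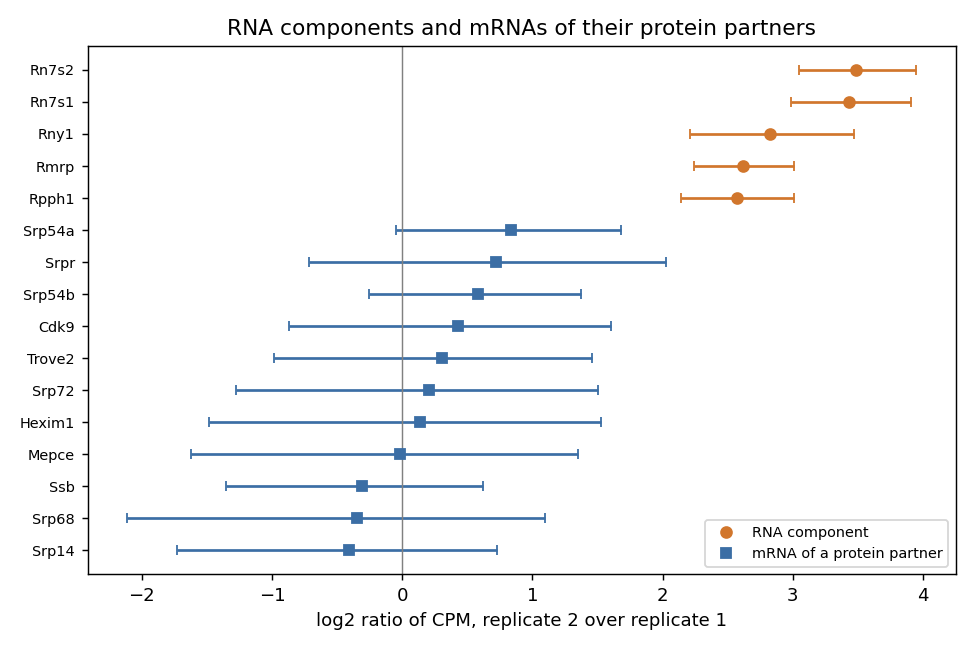
Log2 ratio of CPM, replicate 2 over replicate 1, with exact 95% counting intervals, for the 5 tested RNA components (orange circles) and the 11 tested mRNAs of their protein partners (blue squares). Every partner interval includes 0, and the RNA intervals begin at 2.14 or above.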

How the data were processed

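The authors deposited 1 table of whole-number footprint counts per transcript and replicate, not normalised, with transcript lengths in nucleotides. Per the submitters' processing notes, Trimmomatic 0.36, Bowtie2 2.2.6, SAMtools and build GRCm38.p4 were used; the counting tool, annotation release and any ribosomal RNA filter are not given in the sources used here. Columns were matched to samples by replicate number. Isoforms of a gene carry near-equal counts, so a fragment was taken to count for every isoform it matches. Whether this holds for gene copies at other loci is not known. The transcript with the highest summed count stood for its gene. CPM used TMM effective library sizes from edgeR 4.0.16 (R 4.3.3), by which 1 count equals 2.71 CPM (replicate 1) or 8.93 CPM (replicate 2). Fold values carry no pseudocount; log2 ratios add 1 CPM. The 2-sided exact binomial test (SciPy 1.17.1) covered the 5436 genes whose mean count was 10 or more, used Benjamini-Hochberg adjustment at 0.05 and was tested on simulated data. The simulated counts held Poisson counting error only, so they cannot show how the test behaves when libraries vary beyond it. The exact binomial test is used because 1 group leaves no contrast for a quasi-likelihood test. DESeq2 1.42.0 size factors were an alternative. p-values measure only the spread expected from counting between these libraries.

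Named genes were the 8 RNAs, the highest partner of each list, structured RNAs with at least 20 counts, the 5 genes nearest in ratio, and mt-Rnr1 and mt-Rnr2. Srp54a, Srp14, Hexim1, Mepce, Trove2, Terc, Parp2, Ccdc107 and the genes under "Other observations" were added after their values were seen. The members and lists were chosen with earlier results of these data known. The RefSeq promoter table (GRCm38.p6) held no window of the 8 RNAs themselves; its windows were those of the neighbouring genes.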

Additional observations from a re-analysis of the deposited data

How the results depend on the processing

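The 5 calls among the structured RNAs held in number under library totals, DESeq2 size factors, TMM over coding genes, a minimum mean count of 50, isoforms summed, replicate 1 thinned and a preset coefficient of variation of 0.2, and became 7 with no filter. With that preset, adjusted p from edgeR's exact test was far larger, from 2.73e-09 for Rn7s2 to 3.46e-05 for Rny1. The exact binomial test gave 5.20e-67 and 5.34e-20 for these genes. Partner genes had 0 calls under each of these that left any to test; a minimum mean count of 50 left none, and thinning was not run for them. The 5 calls among other structured RNAs became 2 with a minimum mean count of 50, which left 2 to test. The log2 ratio of the 8 RNAs summed, 2.96, became 2.75 with library totals, a scaling that moves the median of all tested genes from 0.0041 to -0.20, and reached 3.02 with isoforms summed. That of Rn7sk ranged from 0.053 to 0.31. The mean share of 0.358% became 0.188% with isoforms summed, where other genes count fragments repeatedly, 0.277% with the 7SL genes counted once and 0.483% of coding counts; leaving out 1 replicate gave 0.0923% to 0.623%. The summed level of 2.01 CPM per nucleotide was 0.457 to 3.56 with 1 replicate left out and 2.24 over footprint start positions. For Vaultrc5 the mean of 0.341 became 0.141 over the RefSeq length, an alternative added after the data were seen. Over all genes, the 225 calls (217 higher, 8 lower) became 75 with a minimum mean count of 50, 131 with the preset coefficient of variation, 142 with replicate 1 thinned and 605 (383 higher, 222 lower) with isoforms summed. Where no cause is given, the cause was not tested. No paired analysis was possible because the design holds 1 group.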

Other observations

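Further genes annotated as misc_RNA or ribozyme, mostly known by model symbols and picked after their values were seen, are given here as values. Of 570 such genes, 34 had a count, 6 were tested and 5 were called higher in replicate 2 by the exact binomial test, with a median log2 ratio of 2.49. The share called higher was 62.3% over tested short non-coding genes other than the 8 RNAs. Gm24812 (284 nucleotides) had counts of 5 and 30, with a log2 ratio of 4.21, and Gm26168, which at 112 nucleotides has the length of Rny1, had counts of 4 and 20, with a log2 ratio of 3.92. Both genes, and Gm24514 with 6 and 15 counts, reached the count minimum only through replicate 2. Their calls and ratios are therefore not independent of the filter. Gm26461 (290 nucleotides) had counts of 21 and 19, with a log2 ratio of 1.56. Gm25687 (241 nucleotides) was the 1 tested gene not called, with 14 and 7 counts and a log2 ratio of 0.71. The family of each model gene is not named in the table, and fragments shared with the named genes were not separated.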
